A study of Mus musculus with 6 samples.

Results

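CpG methylation was followed at 8 genes that encode transcription factors of naive pluripotency, Esrrb, Klf2, Klf4, Klf5, Tbx3, Tfcp2l1, Prdm14 and Nr5a2, which were selected by name from 21755 protein-coding genes of the GENCODE annotation on chromosomes 1 to 19 and X of GRCm38. All CpG sites in their promoters, gene bodies and 50 kb flanks were used. The study asked how the methylome of advanced pluripotent stem cells (ASCs) relates to that of naive embryonic stem cells (ESCs) and of primed epiblast stem cells (EpiSCs). Blastocysts first gave stem cell lines in Activin A and basic fibroblast growth factor, which the study calls quite similar to EpiSCs. ASCs were derived from such lines and kept in Activin A, BMP4, CHIR99021, which activates Wnt signalling, and leukaemia inhibitory factor (LIF). ESCs were grown in 2i/LIF, in which inhibitors of MEK and GSK3 hold cells in a naive state, and EpiSCs represent the epiblast after implantation. Each group had 2 libraries of whole-genome bisulfite sequencing. The labels give all 6 the strain 129S2/SvPasCrl and a wild-type genotype, and the study states the female sex. Its methods, however, describe ASC lines that go back to embryos of 129/sv females and reporter-carrying males of mixed background. The line that was sequenced is not named. All 6 libraries are labelled as cell type embryonic stem cells, and the study calls the 2 libraries of a group biological replicates. Whether they came from separate lines or cultures is not stated, so p-values refer to these libraries and not to other lines. The spread behind a p-value was in part shared over all regions, and for tiles almost wholly so. RNA was not measured in these libraries, so the name naive describes what is known of the genes and not their expression here.

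The libraries held between 63803799 and 74925271 CpG reads, a mean of 2.96 to 3.46 per listed CpG. Single sites were too shallow to compare, and reads were therefore summed over regions. A read at a CpG is called an observation, and the level of a region is the percentage of its observations that were methylated. Regions with fewer than 40 observations in any of the 6 libraries were not tested, although the levels of a few such regions are printed. A level is a mean over many DNA molecules, so partial methylation of all cells and full methylation of some of them cannot be told apart.

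In naive cells these factors act together and bind at the promoters and enhancers of each other. Esrrb and Nr5a2 are orphan nuclear receptors that recognise a shared sequence, Klf2, Klf4 and Klf5 are zinc finger proteins with overlapping targets, Tbx3 is a T-box factor, and Tfcp2l1 is a grainyhead-like factor downstream of LIF and STAT3. Prdm14 is a PR-domain protein that represses the machinery of de novo methylation. As background, several of them are switched off when cells pass to the primed state.

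The sequences below come from the GRCm38 genome, are written 5′ to 3′ on the strand of the gene, and carry their CpG sites in capitals. The first 5 are 200 bp windows from the 2 kb stretch outside promoters where methylation in ASCs lay furthest below that in EpiSCs. In that stretch they hold the most CpG sites. Their place outside promoters follows from this rule, and large differences at internal starts of Esrrb and Nr5a2 are described below. Windows chosen in the same way at the other 3 genes are not printed. That of Klf4 overlaps an untranslated region, and those of Prdm14 and Nr5a2 hold 4 and 5 CpG sites with as few as 13 and 9 observations. The Nr5a2 window read 85% and 44.4% in ASCs, 15% and 20% for ESCs and 100% in both EpiSC libraries. The last pair is the 200 bp before an Esrrb start that was methylated in ASCs and before one that was not.
Esrrb intron, chr12:86473589-86473788, plus strand: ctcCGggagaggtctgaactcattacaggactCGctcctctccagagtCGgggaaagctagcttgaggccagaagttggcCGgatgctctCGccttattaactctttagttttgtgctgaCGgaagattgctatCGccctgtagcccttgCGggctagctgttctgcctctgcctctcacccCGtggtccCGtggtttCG
Klf2 upstream flank, chr8:72270731-72270930, plus strand: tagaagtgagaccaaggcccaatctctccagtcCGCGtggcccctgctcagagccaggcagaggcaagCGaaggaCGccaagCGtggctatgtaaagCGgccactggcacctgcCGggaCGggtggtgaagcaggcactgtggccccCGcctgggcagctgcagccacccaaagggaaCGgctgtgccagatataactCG
Klf5 downstream flank, chr14:99325702-99325901, plus strand: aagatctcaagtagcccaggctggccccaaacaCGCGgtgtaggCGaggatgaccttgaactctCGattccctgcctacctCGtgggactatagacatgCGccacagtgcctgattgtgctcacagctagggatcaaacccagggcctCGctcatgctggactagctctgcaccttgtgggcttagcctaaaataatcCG
Tfcp2l1 intron, chr1:118646622-118646821, plus strand: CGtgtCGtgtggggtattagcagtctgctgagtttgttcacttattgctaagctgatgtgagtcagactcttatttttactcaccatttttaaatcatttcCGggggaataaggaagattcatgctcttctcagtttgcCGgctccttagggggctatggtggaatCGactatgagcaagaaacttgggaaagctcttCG
Tbx3 downstream flank, chr5:119702490-119702689, plus strand: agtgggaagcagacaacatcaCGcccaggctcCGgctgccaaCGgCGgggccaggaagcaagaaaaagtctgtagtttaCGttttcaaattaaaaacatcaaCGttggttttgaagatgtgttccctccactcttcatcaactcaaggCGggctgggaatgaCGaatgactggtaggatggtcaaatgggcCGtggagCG
Esrrb first start, chr12:86360917-86361116, plus strand: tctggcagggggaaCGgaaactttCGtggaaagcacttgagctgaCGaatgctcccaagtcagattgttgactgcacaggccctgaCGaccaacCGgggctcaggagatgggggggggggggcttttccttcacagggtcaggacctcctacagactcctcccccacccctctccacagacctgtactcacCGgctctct
Esrrb internal start, chr12:86469917-86470116, plus strand: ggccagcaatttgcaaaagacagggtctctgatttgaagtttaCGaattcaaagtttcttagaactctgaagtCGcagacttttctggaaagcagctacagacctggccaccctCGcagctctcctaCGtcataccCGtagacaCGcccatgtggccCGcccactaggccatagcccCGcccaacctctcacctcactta

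The 11 CpG sites of the Esrrb intron window read 1.05% and 1.89% in the ASC libraries, 0% in both ESC libraries and 95.1% and 98.5% in the EpiSC libraries. The shallowest library had 53 observations there, and a count of 0 at that depth allows up to 5.66%. The Tbx3 window had 10 sites and as few as 30 observations. There the ASC libraries read 45.5% and 25%, those of ESCs 7.50% and 7.14%, and those of EpiSCs 93.3% and 100%. ASCs were thus near ESCs at the former and between the other groups at the latter. The 200 bp before the first Esrrb start read 64.9% and 82.6% in ASCs, 0% and 36.8% for ESCs and 43.3% and 71.4% for EpiSCs, with 19 to 37 observations per library. Those before the internal start read 0% in all ASC and ESC libraries and 88.1% and 96.6% in EpiSCs. The internal window rested on as few as 11 observations, and a 0 at that depth allows up to 27.3%.

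The region around the genes was divided into 594 tiles of 2 kb. Of these, 450 passed the minimum of 40 observations and were tested, 23 that overlapped a promoter window, 154 in the rest of the gene bodies and 273 in the flanks. Over the 450 tiles the median level was 60.8% and 61.1% in ASCs, 15.8% and 16.8% over the ESC libraries and 91.8% and 91.2% over those of EpiSCs. The groups did not overlap. A region was called different where the adjusted p was under 0.05 in a quasi-binomial model with dispersion moderated by limma, with Benjamini-Hochberg adjustment over all regions of its kind, and the group means differed by 20 percentage points or more. In ASCs 283 of the 450 tiles (62.9%) were called lower than in EpiSCs, against 53.5% of the 445422 tiles tested in the genome. A drop of 40 points or more was called in 120 tiles (26.7%), against 12.2% in the genome. The median difference between ASCs and EpiSCs was -24.97 points over the 450 tiles and -20.9 over the genome.

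Among the tiles lower by 40 points, many differed between ASCs and ESCs by less than 20 points. At the 8 genes 62 of the 120 (51.7%) were not called higher than in ESCs, against 32.5% of the 54345 such tiles in the genome. This count rests on the required 20 points, since 35 of the 62 had an adjusted p under 0.05 with ASCs above ESCs, and the median excess over the 62 was 5.69 points. The mean level in ASCs was under 20% in 57 of the 120 and under 10% in 39, against 19.1% and 7.92% of such tiles in the genome. In all, a level higher than that of ESCs was called for ASCs in 354 of the 450 tiles (78.7%), against 91.1% in the genome, and 422 (93.8%) were higher in EpiSCs than in ESCs, against 96.5%. Without the required 20 points 407 of the 450 tiles were higher in ASCs than in ESCs. No tile at the 8 genes was called lower in ASCs than in ESCs, against 0.00% in the genome, or lower in EpiSCs than in ESCs, against 0.000898%, so the absence of such tiles was ordinary. At the 8 genes these 2 counts were 0 also at an unadjusted p under 0.05 in the quasi-binomial model and with limma on M values, Fisher's exact test and a replicate block.

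The position of ASCs between the other groups was set as 0 at the ESC mean and 1 at the EpiSC mean of a tile, for tiles in which the EpiSC mean was at least 40 points above the ESC mean. Its median was 0.618 over 410 tiles at the 8 genes and 0.691 over 421820 tiles of the genome. It lay under 0.1 in 39 of the 410 tiles (9.51%) and in 1.29% of those of the genome. By gene these were 18 of 123 tiles at Esrrb (14.6%), 6 of 36 at Klf5 (16.7%) and 5 of 43 at Tfcp2l1 (11.6%). Klf2 had 4 of 32 (12.5%), Prdm14 4 of 46 (8.70%) and Klf4 2 of 25 (8.0%). There were 0 of 28 at Tbx3 and 0 of 77 at Nr5a2. Neighbouring tiles share a locus, so the 39 are not independent.

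**Figure D1:**
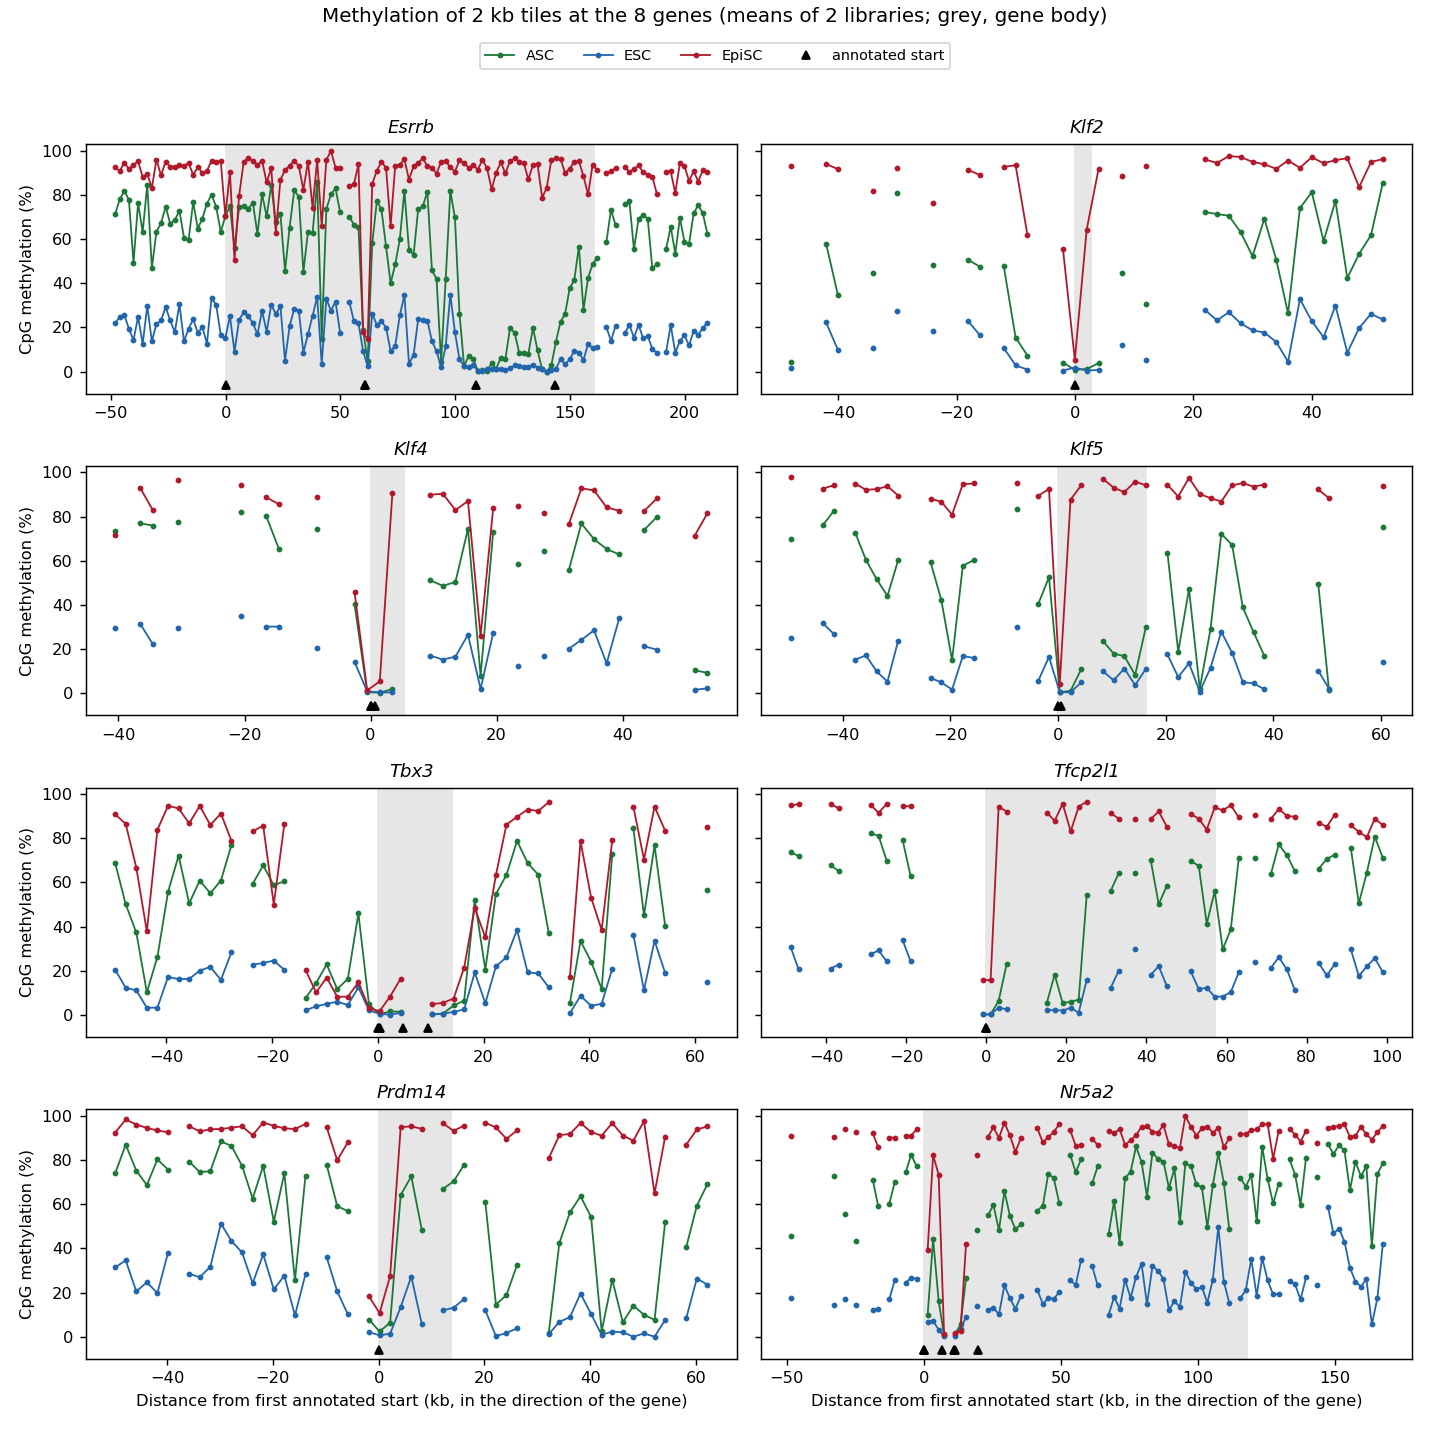
Each panel plots the CpG methylation (%) of the tested 2 kb tiles of 1 gene against the distance in kb from its first annotated start, as the mean of 2 libraries for ASCs (green), ESCs (blue) and EpiSCs (red). Grey marks the gene body, triangles mark annotated starts and gaps are tiles with too few observations. ASCs fell to near the level of ESCs in the 3′ part of Esrrb and over the body of Klf5, and stayed between the other groups over most of Nr5a2.

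The genes differed in how much of their surroundings was affected. Tiles lower in ASCs by 40 points made up 56.8% of the tested tiles at Klf5, 48.5% at Klf2, 30.6% at Prdm14, 30.2% at Esrrb, 26.7% at Tfcp2l1, 13.8% at Klf4, 12.05% at Nr5a2 and 8.33% at Tbx3. Over the 15837 protein-coding genes with at least 20 tested tiles in the gene and its flanks, the median share was 14.8% and the middle 50% lay between 7.39% and 24.1%. A larger share than at Klf5 was found at 0.417% of these genes, a larger one than at Klf2 at 1.42%, and a larger one than at Esrrb at 14.3%. Klf4, Nr5a2 and Tbx3 were below the median of all genes. By position, drops of 40 points were called in 5 of 23 promoter tiles, 57 of 154 tiles of the gene bodies (37.0%) and 58 of 273 flank tiles (21.2%). Esrrb held 4 of the 5 promoter tiles and 32 of the 57 body tiles, and the other 7 genes gave 1 of 17 promoter tiles, 25 of 80 body tiles and 56 of 227 flank tiles. EpiSCs were at least 40 points above ESCs in 8 of the 23 promoter tiles, 146 of the 154 body tiles and 256 of the 273 flank tiles. Most promoter tiles thus left little room for a drop of 40 points, and the counts by position do not show that drops avoided promoters. Over the genome such drops were called in 16.1% of tiles at promoter windows, here of genes of every type. They were called in 12.7% of the other tiles in bodies of protein-coding genes. All remaining tiles, which are not limited to 50 kb flanks, gave 10.03%. In the flanks they were called in 6 of 45 tiles that overlapped another protein-coding gene and in 52 of 228 that did not.

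**Figure D2:**
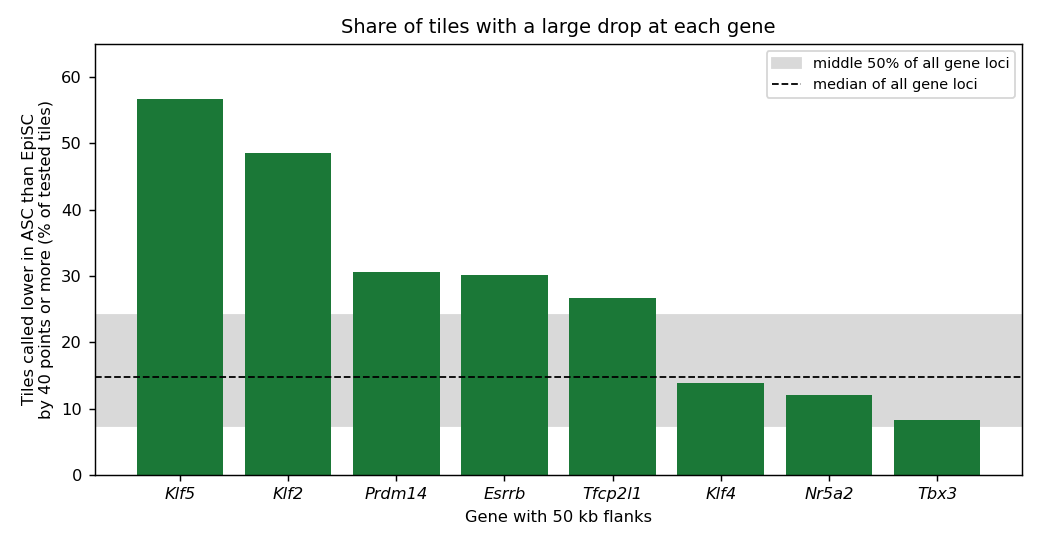
Bars show, for each gene with its 50 kb flanks, the percentage of tested 2 kb tiles called lower in ASCs than in EpiSCs by 40 points or more. The dashed line is the median of all 15837 genes (14.8%) and the grey band their middle 50%, above which 5 of the 8 genes lay.

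Esrrb, which lies on chromosome 12 from 86361117 to 86521628 on the plus strand, held the longest stretch. Over 26 neighbouring tiles, chr12:86462001-86514000, methylation was lower in ASCs by 40 points or more in each, and the 52 kb together read 10.9% and 11.1% in ASCs, 2.24% and 2.01% over the ESC libraries and 92.9% and 92.3% over those of EpiSCs. The means were 10.99% ± 0.13 for ASCs, 2.13% ± 0.17 for ESCs and 92.6% ± 0.44 for EpiSCs (SD, n = 2 each). In 22 of the 26 tiles ASCs were not called higher than ESCs, and in 12 of these 22 they were above ESCs by less than 20 points with an adjusted p under 0.05. The stretch began about 101 kb after the first start and ended inside the gene, and it holds introns, exons and 2 internal starts. The tile with the largest drop, chr12:86472001-86474000 in an intron, read 0.474% and 0.552% in ASCs, 0% and 0.490% for ESCs and 96.1% and 95.6% for EpiSCs (difference -95.3 points, adjusted p = 4.68e-56). Its shallowest library had 164 observations, which puts the limit of a 0 at 1.83%. Next was the tile chr12:86502001-86504000, beside an internal start, at 4.08% and 1.42% in ASCs against 96.7% and 94.9% in EpiSCs.

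The flanks of Esrrb differed from this stretch. There 2 of 46 tested tiles (4.35%) were lower by 40 points, against 12.2% of tiles in the genome. All 46 were higher in ASCs than in ESCs, against 91.1%. The median tile of ASC replicate 1 read 68.0%, against 68.8% over the genome, so the flanks were close to the ordinary level. Within the gene the intron tile chr12:86402001-86404000, about 42 kb after the first start, was a low point of ASCs. It read 13.8% and 15.5% in ASCs, 4.52% and 2.40% for ESCs and 71.1% and 60.8% for EpiSCs (difference -51.3 points, adjusted p = 6.35e-36). This tile was picked after its values were seen.

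**Figure D3:**
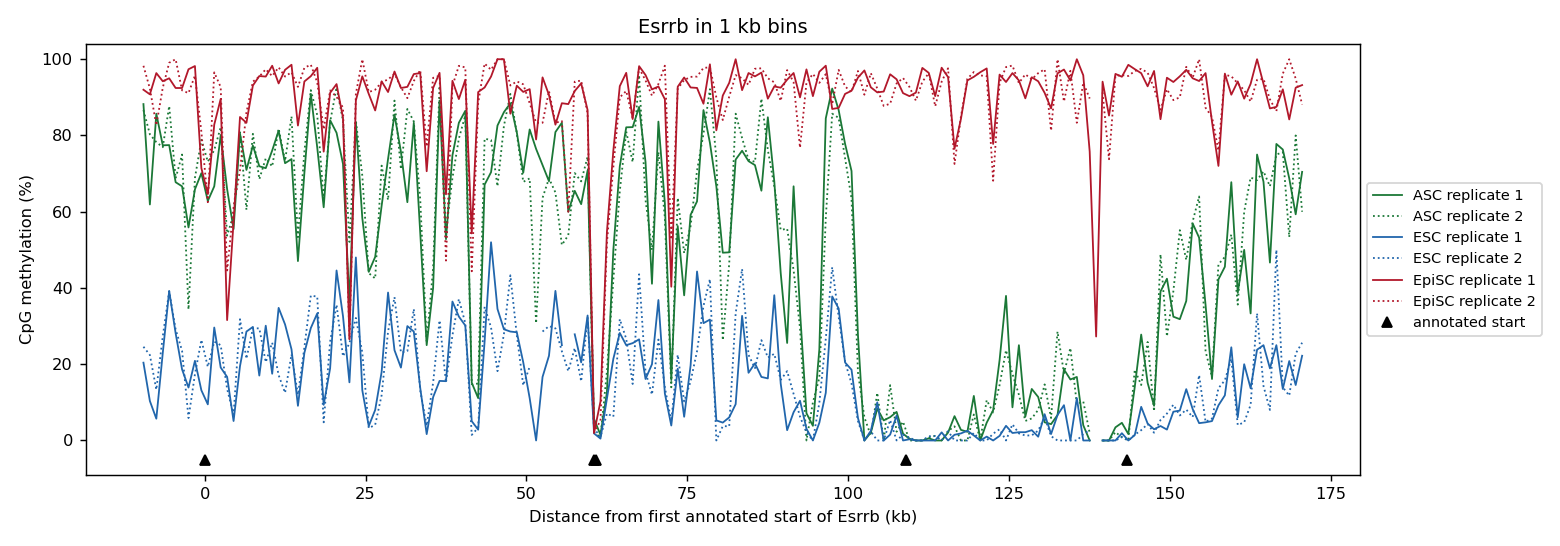
CpG methylation (%) of Esrrb and 10 kb on each side in bins of 1 kb, against the distance in kb from the first start, for each of the 6 libraries (solid, replicate 1, dotted, replicate 2). Triangles mark annotated starts, and bins with fewer than 10 reads are left out. In most bins before about 100 kb the ASC libraries ran between the other groups, with exceptions such as 3.5 kb, where both lay above EpiSCs, and 93.5 kb, where both were near ESCs. Further on they ran near the ESC libraries to about 145 kb, and the bins around the starts at 61 kb were lower than their surroundings in EpiSCs.

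Longest stretches at the other genes were shorter. A run ended at a tile that was not called or not tested. Untested tiles were 4 of 130 at Esrrb, 34 of 79 at Tfcp2l1, 23 of 52 at Klf4, 22 of 59 at Klf5 and 18 of 51 at Klf2. They were 26 of 109 at Nr5a2, 9 of 57 at Tbx3 and 8 of 57 at Prdm14. Run lengths are therefore not fully comparable between genes. Prdm14 had 6 tiles in its downstream flank, chr1:13074001-13086000, with 8.32% and 15.7% in ASCs, 1.88% and 0.752% for ESCs and 91.4% and 90.9% for EpiSCs. Tfcp2l1 had 6 tiles in its introns, chr1:118642001-118654000, with 18.2% and 22.9% in ASCs, 5.14% and 5.68% for ESCs and 91.5% and 93.9% for EpiSCs. In 5 of the 6 tiles at each of these genes ASCs were not called higher than ESCs. Klf5 had 5 tiles over the 3′ part of the gene and up to 1 kb past its end, chr14:99306001-99316000, with 16.3% and 18.7% in ASCs, 6.76% and 9.28% for ESCs and 94.6% in both EpiSC libraries, and none of the 5 was called higher than in ESCs. Of these uncalled tiles, 3 of 5 at Prdm14, 2 of 5 at Tfcp2l1 and 4 of 5 at Klf5 had an adjusted p under 0.05, with ASCs above ESCs by less than 20 points. The run was 3 tiles at Klf2 and 2 at Klf4, and single tiles stood alone at Tbx3 and Nr5a2.

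At the Klf genes, where the promoter tiles of Klf2 and Klf4 were under 10% in both EpiSC libraries, the largest drops lay outside the promoters. Klf2, a gene of 2.62 kb on chromosome 8, had them in both flanks. The tile 4 kb after its start, chr8:72322001-72324000, read 6.52% and 1.10% in ASCs, 1.39% and 0% for ESCs and 94.9% and 88.5% for EpiSCs (adjusted p = 2.45e-28), where 52 observations put the limit of a 0 at 5.77%. The tile 48 kb before the start, chr8:72270001-72272000, read 2.56% and 6.19% in ASCs beside 91.4% and 94.4% in EpiSCs. For Klf4, on chromosome 4, the largest drop was in the 3′ part of the gene itself, chr4:55528001-55530000, which overlaps an exon. It read 0.625% and 3.16% in ASCs, 0% and 0.746% for ESCs and 92.8% and 88.2% for EpiSCs (difference -88.6 points, adjusted p = 1.94e-34), and 76 observations put the limit of a 0 at 3.95%. A pair of neighbouring tiles about 52 kb after the start of Klf4, chr4:55478001-55482000, read 9.19% and 10.6% in ASCs beside 71.2% and 77.6% in EpiSCs.

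Klf5, on chromosome 14 from 99298691 to 99315036, was low in ASCs over its body. All 7 tested tiles of the body outside the promoter were lower by 40 points, and none was called higher than in ESCs, although 5 of the 7 had an adjusted p under 0.05. In the downstream flank, the tile chr14:99324001-99326000, 26 kb after the start, read 0.833% and 3.31% in ASCs, 1.46% and 0% for ESCs and 91.5% and 89.0% for EpiSCs (difference -88.2 points, adjusted p = 2.22e-35), with a limit of 3.19% for a 0 at 94 observations. Another tile 50 kb after the start, chr14:99348001-99350000, read 1.96% and 0.971% in ASCs against 87.2% and 89.6% in EpiSCs. At both sites the ASC and ESC libraries overlapped and lay far below both EpiSC libraries.

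Tfcp2l1 and Prdm14 had their drops in different places. At Tfcp2l1 drops of 40 points were called in 10 of 18 body tiles and 2 of 25 flank tiles. At Prdm14 they were called in 1 of 5 body tiles and 14 of 42 flank tiles. In an intron of Tfcp2l1, 3 kb after the start, the tile chr1:118630001-118632000 read 10.9% and 1.82% in ASCs, 3.17% and 3.51% for ESCs and 95.7% and 93.0% for EpiSCs, with 43 to 63 observations per library. At 19 kb the tile chr1:118646001-118648000 read 3.23% and 7.41% in ASCs against 92.6% and 98.6% in EpiSCs (difference -90.3 points, adjusted p = 5.71e-26). Further along the gene, from 25 kb on, ASCs were called higher than ESCs in every tested tile of the body, as in 91.1% of tiles in the genome. At Prdm14 the largest drop was 42 kb after the start, chr1:13084001-13086000, with 0% and 5.0% in ASCs, 1.64% and 0% for ESCs and 90.7% and 91.3% for EpiSCs (adjusted p = 5.99e-22). The limit of a 0 at 46 observations there is 6.52%.

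Tbx3 and Nr5a2 had smaller drops. At Tbx3, on chromosome 5, the largest was 32 kb after the first start, chr5:119702001-119704000, with 39.8% and 34.3% in ASCs, 10.3% and 14.7% for ESCs and 95.6% and 97.1% for EpiSCs (difference -59.3 points, adjusted p = 7.01e-23). All 4 tiles of Tbx3 that were lower by 40 points were higher in ASCs than in ESCs. At Nr5a2, on the minus strand of chromosome 1, the largest was beside an internal start, chr1:136954001-136956000, with 10.1% and 22.5% in ASCs, 2.08% and 4.17% for ESCs and 77.1% and 69.7% for EpiSCs (difference -57.1 points, adjusted p = 1.23e-13). The other 9 tiles of Nr5a2 with a drop of 40 points were called higher than in ESCs.

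A single tile of the 450 was higher in ASCs than in EpiSCs, where the genome had 0.10% of such tiles. It lay about 4 kb before the first start of Tbx3, chr5:119666001-119668000, within the annotated antisense non-coding gene Tbx3os1. It read 44.8% and 47.2% in ASCs, 15.3% and 9.63% for ESCs and 10.1% and 19.4% for EpiSCs (difference 31.2 points, adjusted p = 3.21e-10, quasi-binomial model), with 129 to 161 observations per library. ESCs and EpiSCs overlapped in this tile and both ASC libraries were above all the others. In the neighbouring tile, which was picked after its values were seen, levels were low. This tile on the side of the gene, chr5:119668001-119670000, read 2.58% and 7.06% in ASCs beside 2.82% and 3.37% in EpiSCs.

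Promoters were examined at every annotated start, from 1000 bp before to 100 bp after it. The 8 genes had 25 such windows, which form 16 separate regions because neighbouring starts share CpG sites, and 21 windows were tested. Of the 21, 12 were under 10% in every library, against 33.0% of the windows tested in the genome. In ASCs 4 of the 21 windows (19.05%) were lower than in EpiSCs, against 33.0% of all 75953 windows tested in the genome. A higher level in ASCs than in ESCs was called in 2 windows (9.52%), against 32.5%, and a higher level in EpiSCs than in ESCs in 6 (28.6%), against 48.6%. The median difference between ASCs and EpiSCs was -1.94 points, against -10.3 over all windows. No window was higher in ASCs than in EpiSCs, against 0.188% in the genome, and that count was 0 also at an unadjusted p under 0.05, with limma on M values and with Fisher's exact test.

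The 5 starts of Esrrb differed in level. At the first, chr12:86361117, the window read 72.3% and 80.0% in ASCs, 13.3% and 26.0% for ESCs and 69.0% and 77.2% for EpiSCs. ASCs and EpiSCs overlapped (difference 3.08 points, adjusted p = 0.672, quasi-binomial model), and ASCs were higher than ESCs by 56.5 points (adjusted p = 3.34e-05). With 500 bp on each side of this start the ASC libraries read 72.8% and 79.2% and those of EpiSCs 60.9% and 66.9%, without overlap (difference 12.1 points, adjusted p = 0.0987). At the start 86421644 the levels were 26.9% and 19.3% in ASCs, 9.46% and 11.7% for ESCs and 20.2% and 16.0% for EpiSCs. ASCs lay above ESCs there by 12.5 points (adjusted p = 0.0116, quasi-binomial model), under the required 20, and overlapped EpiSCs. The next start, 86421883, about 61 kb after the first and rich in CpG, shares CpG sites with it and read between 3.08% and 7.59% in all 6 libraries. At the internal coding start 86470117 the window read 1.25% and 3.25% in ASCs, 0% and 1.65% for ESCs and 91.4% and 95.5% for EpiSCs (difference -91.2 points, adjusted p = 5.04e-08), and 80 observations put the limit of a 0 at 3.75%. The start of a processed transcript at 86504409 read 1.15% and 1.06% in ASCs, 1.32% and 0% for ESCs and 96.0% in both EpiSC libraries (difference -94.9 points, adjusted p = 2.46e-08). The last 2 starts lie in the 52 kb stretch described above.

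The other called windows were at Nr5a2 and Tbx3, each at the start of a transcript with a retained intron. For Nr5a2, about 20 kb inside the gene, levels were 44.4% and 48.1% in ASCs, 8.0% and 10.7% for ESCs and 77.6% and 83.3% for EpiSCs (difference -34.2 points, adjusted p = 9.31e-04), so that ASCs stood apart from both other groups. At the Tbx3 start 4.8 kb inside the gene they were 0% and 1.09% in ASCs, 1.12% and 0% for ESCs and 18.5% and 31.1% for EpiSCs (difference -24.3 points, adjusted p = 2.34e-04). The limit of a 0 at 60 observations is 5.0% there. The call was lost without EpiSC replicate 2 (-18.0 points) and with a window from 500 bp before to 500 bp after it (-9.71 points).

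Tested windows at the first starts of the other genes were low in ASCs. At the first start of Prdm14 the levels were 1.11% and 7.50% in ASCs, 0% and 0.926% for ESCs and 24.8% and 18.1% for EpiSCs. The difference of -17.2 points (adjusted p = 3.11e-03, quasi-binomial model) missed the 20 points. It passed them without ASC replicate 2 (-20.4) or EpiSC replicate 2 (-20.5), and shrank to -8.61 points with 500 bp on each side of the start. The Tfcp2l1 window read 0% in both ASC libraries, 0% and 0.948% for ESCs and 8.70% and 5.08% for EpiSCs, where 94 observations allow up to 3.19%. Klf2 read 0.694% and 0.9901% in ASCs beside 12.4% and 4.57% in EpiSCs, and ESC replicate 2, at 6.75%, lay above 1 of the EpiSC libraries. All windows of Klf4 and the first 3 of Tbx3 were under 2% in every library. The windows at the 2 outermost starts of Nr5a2 were not tested, having as few as 17 and 11 observations, and were high in ASCs. They read 76.5% and 65% in ASCs beside 88.5% and 81.5% in EpiSCs at 136960380, and 63.6% and 66.7% in ASCs beside 87.0% and 81.8% in EpiSCs at 136960448. By contrast, the tested coding starts 136949173 and 136949562, further inside Nr5a2, read 0% in both ASC libraries. EpiSCs read 0% and 3.89% at the former and 2.13% and 7.58% at the latter, and the limits of a 0 were 2.0% and 6.38%.

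**Figure D4:**
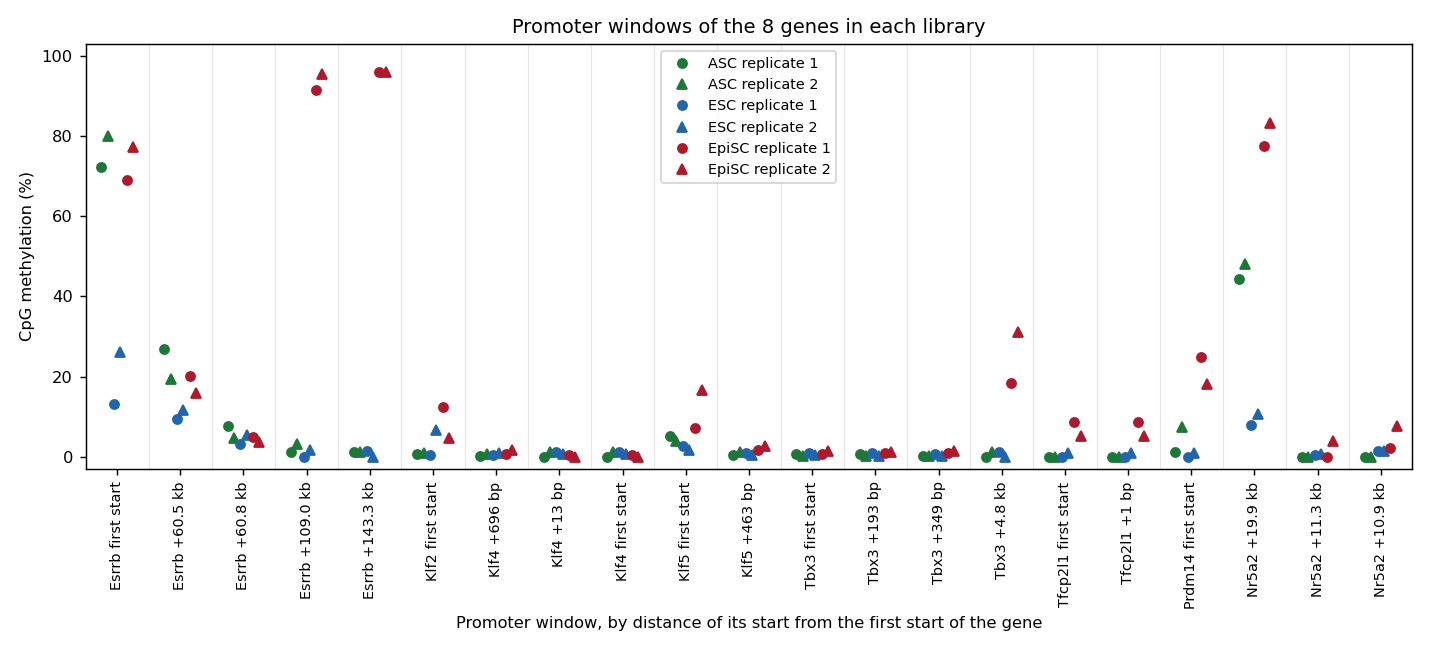
CpG methylation (%) of the 21 tested promoter windows in each library (circles, replicate 1, triangles, replicate 2), ordered by gene and labelled with the distance from the first start. The EpiSC libraries stood above 90% and the ASC and ESC libraries under 4% at the Esrrb starts 109 and 143 kb after the first, while ASCs and EpiSCs overlapped at the first Esrrb start and 12 of the windows were under 10% in every library.

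Gene bodies summarise both kinds of region. From the first to the last annotated base, 4 of the 8 genes were lower in ASCs than in EpiSCs by 20 points or more, against 54.7% of the 19747 genes tested, and 3 by 40 points or more, against 6.90%. Klf5 read 8.15% and 7.12% in ASCs, 2.91% and 3.71% for ESCs and 58.9% and 53.2% for EpiSCs (difference -48.4 points, adjusted p = 1.41e-10). Tfcp2l1 read 38.9% and 38.3% in ASCs, 8.95% and 11.4% for ESCs and 82.5% and 81.6% for EpiSCs (difference -43.5 points, adjusted p = 9.13e-11). In Esrrb the levels were 41.7% and 42.3% in ASCs, 12.3% in both ESC libraries and 83.6% and 83.0% in EpiSCs (difference -41.3 points, adjusted p = 5.32e-14). A larger drop than in these 3 genes was found in 3.37%, 5.07% and 6.12% of all genes. The fourth was Klf2, with 1.32% and 0.467% in ASCs, 0.564% and 1.002% for ESCs and 32.0% and 31.0% for EpiSCs (difference -30.6 points, adjusted p = 2.62e-09).

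The remaining bodies differed from EpiSCs by less. Klf4 was at 0.46% ± 0.15 in ASCs and 13.6% ± 0.16 in EpiSCs (SD, n = 2 each), and Tbx3 at 2.31% ± 0.57 and 7.58% ± 0.67. Prdm14 read 36.0% and 36.2% in ASCs beside 53.2% and 51.0% in EpiSCs, and Nr5a2 52.3% and 53.1% against 73.3% and 70.5%. In none of the 4 did the libraries of ASCs and EpiSCs overlap, and all had an adjusted p under 0.05 without the required 20 points. The difference at Nr5a2, -19.2 points, passed that line without EpiSC replicate 2 (-20.5).

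Against ESCs the bodies fell into 2 kinds. In ASCs 4 of the 8 were higher by 20 points, against 86.8% of all genes, and in EpiSCs 6 were higher, against 95.8%. The 4 higher in ASCs were Esrrb, Tfcp2l1, Prdm14 and Nr5a2, by 28.4 to 35.7 points. At Klf2 ASCs exceeded ESCs by 0.11 points (adjusted p = 0.661) and at Klf4 by 0.05 points (adjusted p = 0.841), where the libraries of both groups overlapped. Klf5 was higher in ASCs by 4.33 points (adjusted p = 4.84e-04) and Tbx3 by 1.40 points (adjusted p = 5.63e-03, quasi-binomial model). At Klf4 and Tbx3 EpiSCs themselves exceeded ESCs by 13.2 and 6.67 points and were not called higher. These bodies thus left little room for an excess of 20 points in ASCs. By level in ASCs the order was Nr5a2, Esrrb, Tfcp2l1, Prdm14, Klf5, Tbx3, Klf2 and Klf4, and the libraries of neighbours in that order overlapped at Klf2 and Klf4 alone. The median difference between ASCs and EpiSCs was -24.9 points for the 8 genes and -21.0 for all genes.

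**Figure D5:**
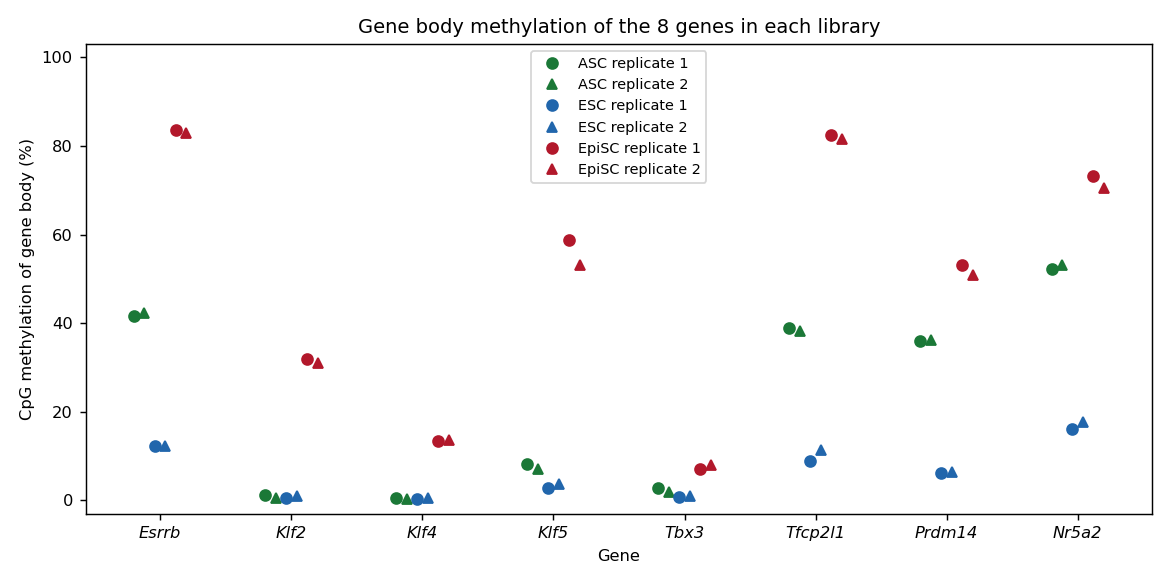
CpG methylation (%) of each gene body in the 6 libraries (circles, replicate 1, triangles, replicate 2). The EpiSC libraries were highest at every gene, and the ASC libraries lay within 5 points of the ESC libraries at Klf2, Klf4 and Tbx3 but far above them at Esrrb, Tfcp2l1, Prdm14 and Nr5a2.

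For each gene the protein-coding gene with the most similar body levels over the 6 libraries was found by the root mean square difference. The nearest were Mosmo to Esrrb (0.930 points), Gm5617 to Klf2 (1.01), Rps13 to Klf4 (0.267), Ntf5 to Klf5 (1.20), Atoh1 to Tbx3 (0.595), Elovl6 to Tfcp2l1 (1.15), Cops5 to Prdm14 (1.41) and Plekhg3 to Nr5a2 (0.587). None of the 8 factors was the nearest gene of another.

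Motifs of the factors other than Tfcp2l1, for which none was searched, were looked for on both strands in the tile with the largest drop outside promoters at each gene. The sequence of Esrrb and Nr5a2, AAGGTCA, was present in 3 of the 8 tiles, those at Esrrb, Klf2 and Klf5, and in 33.7% of the 445422 tiles tested in the genome. The KLF motif GGGNGNGG was in 7 of the 8 and in 80.7% of all tiles. Tiles at Esrrb and Nr5a2 held the T-box motif AGGTGTGA, which 9.62% of all tiles hold. The PRDM14 motif GGTCTCTAA was in none of the 8, and in 1.57% of all tiles. A match is a run of letters and not a bound site.

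Promoters of genes that work with these factors were compared as a reference, in 3 lists. Of partner genes, which are core or naive pluripotency factors and markers, 14 of 23 tested windows were lower in ASCs than in EpiSCs, in 6 of 8 genes. Neighbouring starts share CpG sites here too, and the 14 windows form 7 separate regions of 13 tested. The marker Zfp42 read 0% in all ASC and ESC libraries and 94.6% and 97.8% in EpiSCs at the start 43306980, where 43 observations put the limit of a 0 at 6.98%, while the Sox2 window was under 2% in all 6 libraries. Of input genes, which carry LIF and Wnt signals, 19 of 53 windows were lower, close to the 33.0% of the genome, in 6 of 8 genes and in 14 of 24 separate regions. Some of the 19 were at internal starts where ASCs were high too. An example is the Ctnnb1 start 120955457, with 72.2% and 71.9% in ASCs beside 96.9% and 98.3% in EpiSCs. At Il6st, the shared LIF receptor subunit, the first start read 0% in both ASC libraries, where 156 observations allow up to 1.92%, with 3.35% and 1.99% in EpiSCs, and the internal start 112467593 read 12.3% and 8.06% against 90.1% and 95.5%. Of paralogues of the 8 factors, 10 of 40 windows were lower, in 4 of 9 genes and 8 of 20 separate regions, and 6 of the 10 windows were at Klf3. All 116 windows together gave 43 (37.1%), beside the 33.0% of the genome. For the counts by gene and by separate region no share of the genome was computed. Genes with more starts had more windows that could be called, so these counts are not read as a result.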

How the data were processed

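Whole-genome bisulfite sequencing was analysed in 6 libraries, 2 each of ASCs, ESCs and EpiSCs. Per the labels and the study's methods, the authors made single-end libraries by post-bisulfite adaptor tagging, trimmed reads with Trim Galore, aligned them to GRCm38 with Bismark 0.16.3, removed duplicates and called symmetric CpG sites with MethPipe (no version stated). Files deposited by the authors hold a methylated fraction (0 to 1) and a coverage count of reads per CpG, without pooling of replicates. Conversion errors and the removal of unmapped or repeated reads could shift all levels.

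Methylated reads were recovered as fraction times coverage and summed over 2 kb tiles, promoter windows (1000 bp before to 100 bp after each GENCODE vM21 start) and gene bodies. Regions with at least 40 observations in each library were fitted by a quasi-binomial logistic model with group as the term, dispersion moderated over all regions with limma 3.58.1 in R 4.3.3, 2-sided F tests and Benjamini-Hochberg adjustment over all regions of a kind. For tiles the moderation had 144.7 prior degrees of freedom against 3 residual ones. A small p-value of a tile thus rests mainly on its read counts and on the dispersion common to all tiles. Promoter windows and gene bodies had 8.56 and 8.70 prior degrees of freedom. The script was tested on simulated data. Python 3.11.15, numpy 2.4.6, scipy 1.17.1, pandas 2.3.3, numba 0.67.0 and matplotlib 3.10.9 were used. Where a limit is given for a level of 0, it is 3 counts over the observations of the shallowest library, which covers counting error only. Named tiles were, per gene, up to 3 with the largest called drop in ASCs against EpiSCs, and every tile higher in ASCs. The 8 genes and the lists were chosen with earlier results of these data known. Alternatives were other minimums of observations, other differences, other windows, limma on M values, Fisher's exact test, thinning, a replicate block and leaving out each library.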

Additional observations from a re-analysis of the deposited data

How the results depend on the processing

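The counts of calls were recomputed under each alternative, and 162 stayed within 1.5 times the reported count while 15 moved. With a minimum of 100 observations, 74 tiles were lower in ASCs than in EpiSCs, 36 by 40 points, 83 were higher in ASCs than in ESCs and 107 higher in EpiSCs than in ESCs, of 132 tested. At that minimum 0 of 12 promoter windows were called in the quasi-binomial model in each of these comparisons (ASCs lower than EpiSCs, ASCs higher than ESCs, EpiSCs higher than ESCs), with 3, 1 and 3 at an unadjusted p under 0.05, and the 3 lists gave 4 windows and the named regions 9. Fewer regions were tested, and the share called also fell for the lists, from 37.1% to 5.88%, and for tiles higher in ASCs than in ESCs, from 78.7% to 62.9%. For the lists and tiles the cause was not tested. Promoter windows of the 8 genes called at the minimum of 40 had 48 to 80 observations in their shallowest library. None of them was thus among the 12 tested at 100. Without a minimum difference, 10 promoter windows were lower in ASCs than in EpiSCs, 10 were higher in EpiSCs than in ESCs, and 79 windows of the lists and 8 gene bodies were lower. With windows of 500 bp on each side of a start, 2 were lower in ASCs and 3 higher in EpiSCs than in ESCs. The Esrrb window at 86504409 was then not tested, with as few as 20 observations. It read 0% in both ASC libraries and 90.6% and 95.7% in EpiSCs. Signs were followed for the named tiles, the promoter windows of the 8 genes and the gene bodies, and among these no called difference between ASCs and EpiSCs changed sign. Of those not called, the difference of 3.08 points at the first Esrrb start ranged from -1.004 to 7.17 with 1 library left out, and was below 0 without ASC replicate 2 (-0.747) or EpiSC replicate 1. In a pair of Klf4 windows that share their CpG sites it ranged from -0.263 to 0.918 around 0.327, and was below 0 without ASC replicate 2. These checks of sign left out the windows of 500 bp on each side of a start. At the Esrrb start 86421883, which was not called, the difference was 1.96 points, and -0.837 points with such a window.

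Leaving out 1 library at a time gave 278 to 295 tiles lower in ASCs, 118 to 130 by 40 points, 1 higher, 351 to 375 higher than in ESCs, and 422 to 443 higher in EpiSCs than in ESCs, and 4 to 5, 2 and 5 to 6 promoter windows. With the replicate number as a replicate block the counts were 283, 120, 1, 354 and 422 tiles, 4, 2 and 6 promoter windows and 42 windows of the lists. Deviations of same-numbered libraries correlated by -0.0062 to 0.0023. Replicates differed by little more than counting error (chi-square per CpG 1.10 to 1.13), so this value cannot exclude that the numbers pair the libraries. Mean coverage of about 3 reads limits what single CpG sites can show.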
